A study of Mus musculus with 6 samples.

Results

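The Hox genes are 39 homeobox genes of the mouse that lie in 4 clusters, Hoxa on chromosome 6, Hoxb on chromosome 11, Hoxc on chromosome 15 and Hoxd on chromosome 2. All rows of the deposited gene table whose symbol was Hox, a cluster letter and a number were taken, which gave 39 of 58116 features. Their polyadenylated messages were sequenced from primordia of the salivary gland, taken from wild type mice at E13.5 (embryonic day 13.5). The BMP-2 libraries came from primordia given 300 ng/ml of BMP-2, a growth factor of the bone morphogenetic protein group, and the control libraries from primordia given 0 ng/ml, with 3 libraries in each group. How long the factor was present is not stated. One BMP-2 column matched no sample description, and its group rests on the first letter of its name alone. It is called the unnumbered BMP-2 library here. Calls of single genes named here are given without it as well, except for the cartilage markers.

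Hox proteins are DNA-binding transcription factors that give cells their position along the head-to-tail axis. Genes at the same place in different clusters are paralogs and carry the same number; low numbers are active from the hindbrain onward, middle numbers in the trunk, and high numbers in the hind trunk, the limbs and the genital region. Neural crest cells of the mandibular arch, which give rise to the mesenchyme of the submandibular gland, are known as a Hox-free population. Some Hox genes have later roles outside this axis, among them Hoxc13, which is active in hair, nail and the filiform papillae of the tongue.

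Total counts ran from 23331703 to 32473558 in the BMP-2 libraries and from 19724383 to 26269855 in the control libraries. The labels do not say whether replicate libraries stem from different litters or cultures. P-values therefore measure the spread among these 6 libraries, part of which may be technical. Levels are given in CPM, the count scaled to a fixed library total after TMM (trimmed mean of M values) correction. Salivary epithelial markers, among them Epcam, Krt14 and Bpifa2, summed to 3747 to 4070 CPM in BMP-2 and 4897 to 6762 CPM in control libraries. Mesenchymal markers summed to 4041 to 6362 CPM in BMP-2 and 4938 to 5595 CPM in control libraries. Skeletal muscle markers summed to 778, 182 and 787 CPM in BMP-2 replicate 1, replicate 2 and the unnumbered library. In control replicate 3 they summed to 88.3 CPM, against 3.04 and 2.80 CPM in control replicates 1 and 2. Of the 14 muscle markers 12 had a row and all 12 had a positive log2 change. Only Pax7 was called (log2 change 5.15, adjusted p = 0.0288, edgeR), beside 0.911% of all genes tested. Pax7 passed the filter only through its BMP-2 counts, so its call is a description. That call was lost without the unnumbered BMP-2 library (4.95), BMP-2 replicate 1 (4.93) or any 1 control library (4.67 to 6.09; adjusted p from 0.0641 to 0.102 over these, edgeR). Pax7, Myf5, Myog, Mymk, Actc1 and Ckm were at 0 in control replicate 1. Neuronal markers summed to 61.7 to 146 CPM in BMP-2 and 139 to 187 CPM in control libraries, and glial markers to 9.50 to 10.2 CPM and 16.4 to 20.8 CPM. Endothelial markers summed to 12.3 to 20.7 CPM in BMP-2 and 8.41 to 21.3 CPM in control libraries, and leukocyte markers to 128 to 208 CPM and 55.8 to 151 CPM. Erythroid markers summed to 1.91 to 2.71 CPM in BMP-2 and 1.55 to 1.83 CPM in control libraries, and cartilage markers to 94.6 to 157 CPM and 35.9 to 55.4 CPM. Of 5 tested cartilage markers 3 were called higher, as were 0.811% of all genes tested. Among these, Acan was at 0.348 CPM or less in controls. Acan passed the filter only through its BMP-2 counts, so its call is a description. The cartilage calls are not given without the unnumbered BMP-2 library. The part of these cell types in the Hox counts was not tested, and in bulk samples more cells of a type and more RNA per cell cannot be told apart.

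Nearly all Hox genes had few counts or none. The 39 genes together held 63, 134 and 82 counts in BMP-2 replicate 1, replicate 2 and the unnumbered BMP-2 library, and 36, 17 and 86 counts in control replicates 1, 2 and 3. Of all 418 counts, Hoxc13 held 149 and Hoxd8 held 99. Of the 39 genes 26 had any count (66.67%), against 52.14% of all 53519 rows with Ensembl identifiers. The other 13 had 0 counts in every library: Hoxa4, Hoxa5, Hoxa6, Hoxb1, Hoxb6, Hoxb7, Hoxb13, Hoxc8, Hoxc12, Hoxd1, Hoxd4, Hoxd11 and Hoxd12. A count of 0 allows up to 3 counts, which is 0.0933 to 0.150 CPM in a library, for counting error only. A single Hox gene, Hoxd8, passed the filter for low counts (2.564% of the Hox genes), against 30.9% of all 53519 rows with Ensembl identifiers.

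**Figure D1:**
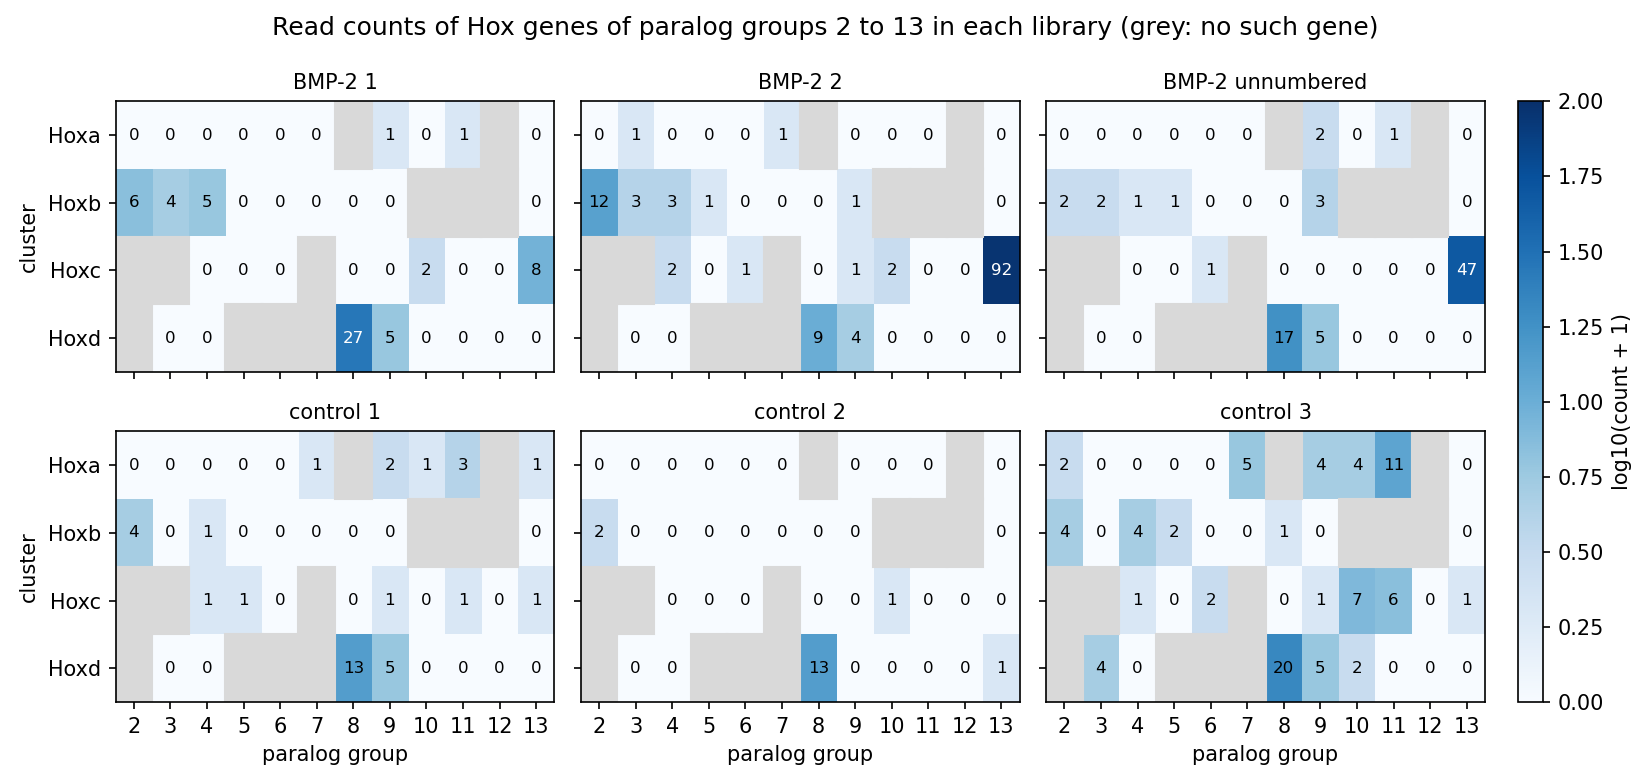
Read counts of Hox genes in each library, with clusters as rows and paralog groups 2 to 13 as columns; shade is log10(count + 1) and grey marks a gene that does not exist in the mouse. Hoxd8 has counts in all 6 libraries, and Hoxc13 reaches 92 and 47 counts in 2 BMP-2 libraries. Among the libraries, control replicate 3 has the highest counts of Hoxa9, Hoxa10, Hoxa11, Hoxc10 and Hoxc11.

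A low count in this table does not show absence. Pbx2 and Men1, which most cell types use, had 0 to 6 and 2 to 7 counts in a library, and Calcoco2, a widely used autophagy receptor gene next to the Hoxb cluster, was listed at 0 in all 6. These 3 were chosen after their values were seen. In the GENCODE M21 annotation (GRCm38, used here for gene structure only), 23 of the 39 Hox genes share no exonic base with another gene. Hoxd3, Hoxd4 and Hoxb3 share 62.8, 52.3 and 52.9% of theirs, Hoxb3 with the antisense transcript Hoxb3os, and Hoxa11 shares 35% of its own with Hoxa11os. The sources used here do not say whether counting used strand, so the reads of these antisense pairs cannot be told apart. Hoxd3 and Hoxd4 overlap each other on the same strand, so strand would not separate their shared reads. The 0 of Hoxd4 and the counts of Hoxd3 carry this limit. Hoxc13 and Hoxd8 are among the 23 without overlap.

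In the test across all genes, BMP-2 changed 155 of 17006 genes (0.911%), of which 138 were higher (0.811% of those tested; edgeR's quasi-likelihood test at a Benjamini-Hochberg adjusted p below 0.05). No Hox gene was called, with 1 of 39 tested. Without the filter 26 Hox genes could be tested and edgeR again called 0, against 552 of 31643 features (1.74%), of which 433 were higher (1.37% of the features). At an unadjusted p below 0.05 in that fit stood 4 Hox genes: Hoxc13 and Hoxb3 higher, Hoxc11 and Hoxa11 lower. Of all 31643 features, 2394 (7.57%) stood there. In fits without the filter DESeq2 called 1 Hox gene, Hoxc13, and limma-voom called 0. All 3 BMP-2 libraries lay above all 3 control libraries for Hoxc13 and Hoxb3, 2 of the 26 Hox genes with a count, a share near the 6.35% of all features with a count. No Hox gene had all BMP-2 libraries below the controls, which 4.85% of features had.

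Hoxc13, the end gene of the Hoxc cluster (chromosome 15, 102829538 to 102837249, plus strand, GRCm39, whole gene span), was the Hox gene with the highest level per kilobase in 2 of the 3 BMP-2 libraries. With BMP-2 it had 8 counts in replicate 1, 92 in replicate 2 and 47 in the unnumbered library, against 1, 0 and 1 in control replicates 1, 2 and 3. These are 0.249, 3.78 and 1.99 CPM with BMP-2 and 0.0498, 0 and 0.0374 CPM without. The groups did not overlap, but the BMP-2 libraries differed among themselves by more than any control differed from another, with BMP-2 replicate 1 lowest.

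Summed, Hoxc13 had 147 counts with BMP-2 and 2 without, a ratio of 61.3 with an exact 95% interval from 16.7 to 511, which covers counting error only. The mean was 2.01 ± 1.77 CPM in BMP-2 and 0.0291 ± 0.0259 CPM in control libraries (SD, n = 3 each). An exact permutation test, two-sided, gave p = 0.1, the smallest that 3 against 3 libraries can give. Hoxc13 missed the filter, which BMP-2 replicate 1 did not reach. The fit without the filter kept every feature with a count, Hoxc13 among them, though only 2 of its counts came from controls. That fit gave a log2 change of 5.86 (SE 1.35) and an adjusted p of 0.152 in edgeR. The call turned on the method. In fits without the filter the adjusted p was 1.48e-05 in edgeR without its robust option, 0.000244 in DESeq2 and 0.159 in limma-voom. Leaving out any single library, the unnumbered one included, gave log2 changes from 5.0 to 6.38 with adjusted p from 1.72e-12 to 3.57e-06 (edgeR, no filter). Hoxc13 passed the filter when BMP-2 replicate 1 or a control library was left out, but only through its BMP-2 counts, so nothing is read from its tests there. With the muscle marker score as a covariate, the log2 change was 8.86 and the adjusted p 1 (edgeR, no filter). This score was 3.77 to 5.63 in BMP-2 and -1.43 to 2.54 in control libraries on a log2 scale. It thus separates the groups as the treatment does. A call lost in a fit with this score is not read as a result.

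**Figure D2:**
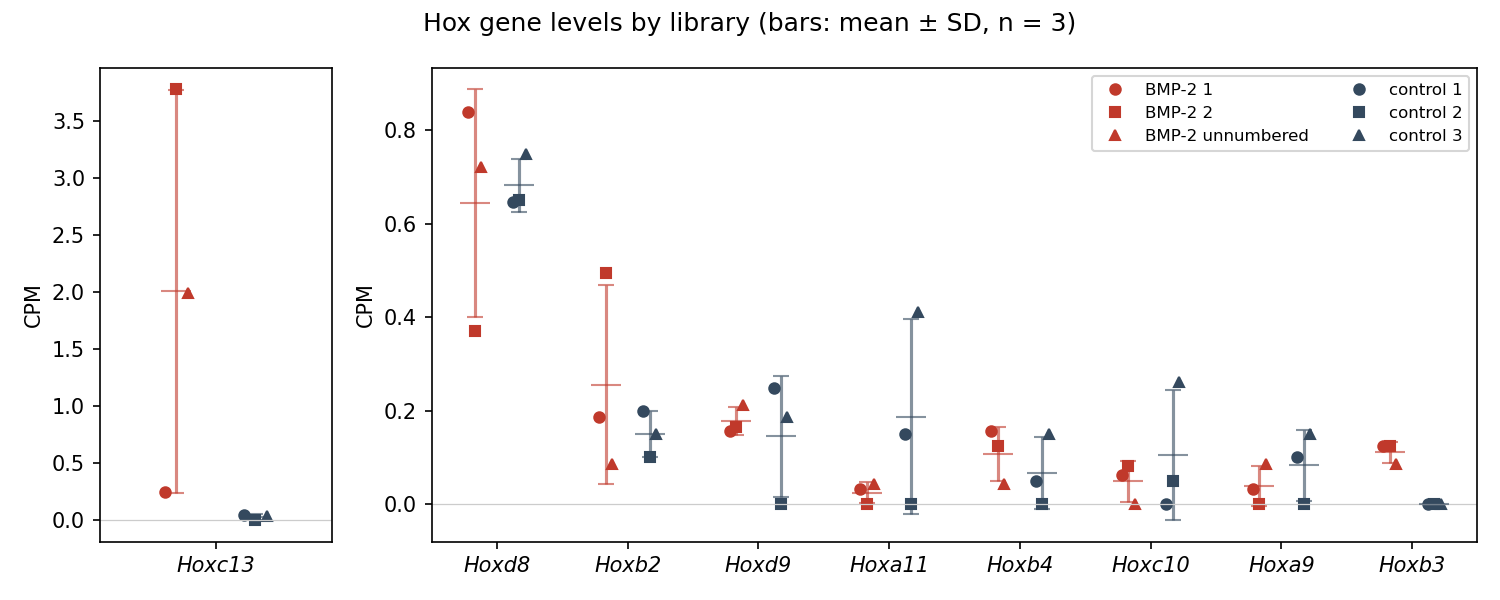
CPM of Hoxc13 (left panel) and of 8 other Hox genes (right panel, own axis) in each library; points are libraries, and bars show the mean ± SD of 3. Hoxc13 lies between 0.249 and 3.78 CPM in BMP-2 libraries and at 0.0498 CPM or less in controls, while the groups overlap for the other genes shown except Hoxb3.

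Hoxc13 is known to act in hair and nail on the hard keratin genes and on Foxn1, a transcription factor gene of the hair and nail. The hard keratin list was drawn up after the Hoxc13 values were seen. Of its 16 genes 15 had a row, 2 could be tested and 1 was called, beside 0.911% of all genes tested. The called gene was Krt84, which encodes a hard keratin of nail and tongue, with 5.44, 23.2 and 8.57 CPM in BMP-2 replicate 1, replicate 2 and the unnumbered library, against 0.149, 0 and 0.0748 CPM in control replicates 1, 2 and 3. It rose by 7.28 on the log2 scale (SE 0.879, adjusted p = 0.0210, edgeR), with 941 counts in the BMP-2 and 5 in the control group. Krt84 passed the filter only through its BMP-2 counts, so its call is a description. The call was lost without the unnumbered BMP-2 library or any 1 control library (log2 change 6.78 to 8.03, adjusted p from 0.0592 to 0.118, edgeR), in limma-voom (7.06), without the filter (7.30) and with the muscle marker score as a covariate (10.5). The log2 change of Krt32, the other tested member, was 2.02 (adjusted p = 0.437, edgeR), and Krt40 was at 0 in all libraries. The list summed to 9.97 to 24.8 CPM in BMP-2 and 0.601 to 1.53 CPM in control libraries, and Krt84 carried most of the difference. Without Krt84 it summed to 6.93, 1.56 and 1.40 CPM in BMP-2 replicate 1, replicate 2 and the unnumbered library, against 0.796, 0.601 and 1.46 CPM in control replicates 1, 2 and 3. These groups overlapped, and the rest of the list was highest in BMP-2 replicate 1, where Hoxc13 was lowest among the BMP-2 libraries. Foxn1 was at 6.55 ± 2.74 CPM in BMP-2 and 4.08 ± 1.01 CPM in control libraries (SD, n = 3 each) and was not called (log2 change 0.68, adjusted p = 0.590, edgeR).

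BMP-2 replicate 2 had the highest level of Hoxc13, Krt84 and the homeobox genes Msx2 and Dlx3, and BMP-2 replicate 1 the lowest. Msx2 was at 5.22, 19.3 and 18.1 CPM and Dlx3 at 5.50, 17.8 and 13.5 CPM in BMP-2 replicate 1, replicate 2 and the unnumbered library, against 0.374 CPM or less for Msx2 and 0.898 CPM or less for Dlx3 in controls. Skeletal muscle markers were lowest in BMP-2 replicate 2 among these libraries, as were mesenchymal and endothelial markers. Cartilage markers, at 94.6, 157 and 147 CPM, neuronal markers, at 61.7, 146 and 105 CPM, and leukocyte markers, at 128, 208 and 140 CPM, were highest there and lowest in BMP-2 replicate 1. Msx2 and Dlx3 were picked with their values in view, and with 3 libraries this order is a description.

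**Figure D3:**
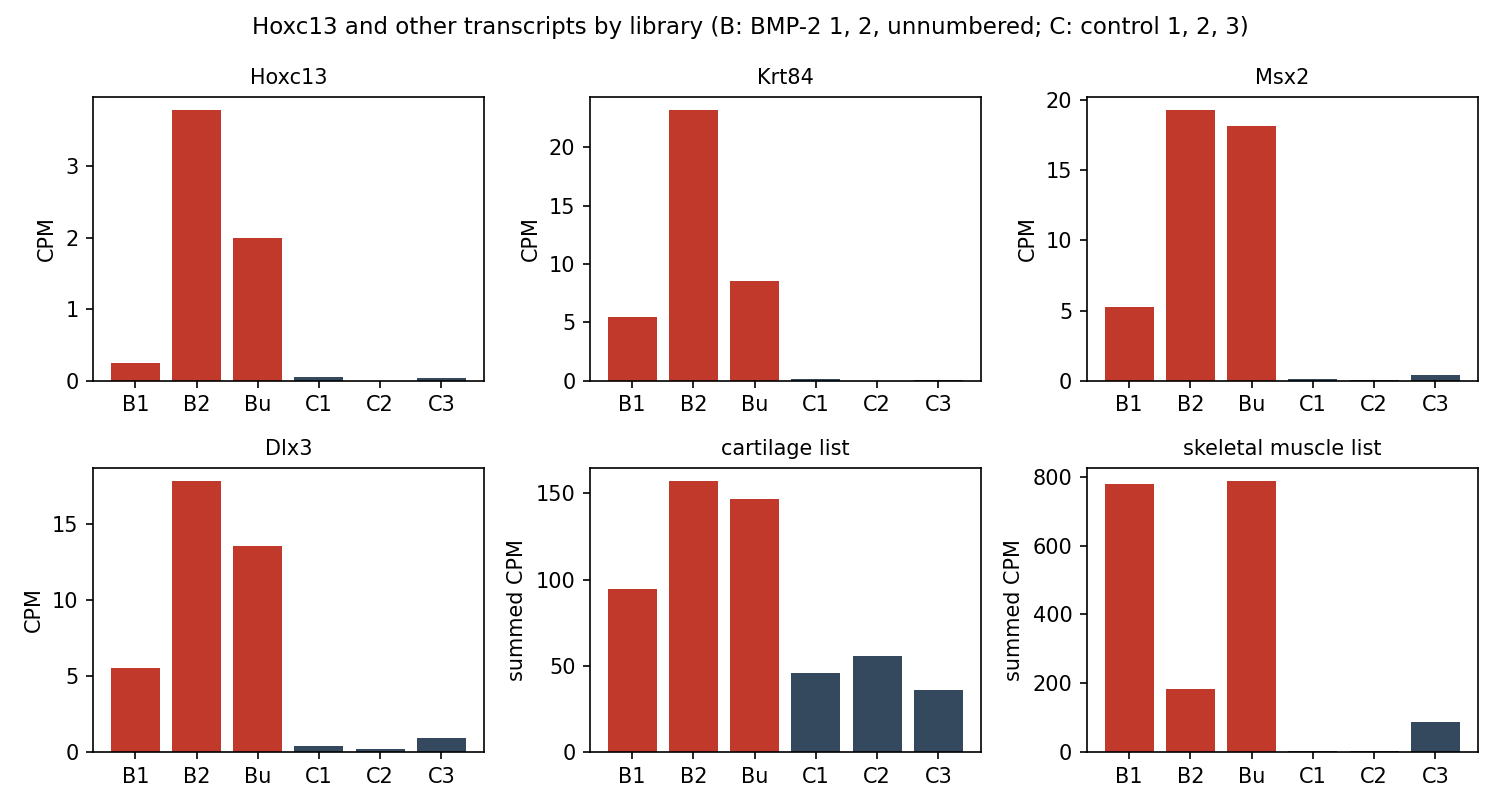
CPM of Hoxc13, Krt84, Msx2 and Dlx3 and summed CPM of the cartilage and skeletal muscle marker lists in each library, BMP-2 in red and control in dark grey, each panel with its own axis from 0. In the BMP-2 libraries the 4 genes are highest in replicate 2, where the muscle sum is lowest at 182 CPM.

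Hoxd8 was the only Hox gene with 9 or more counts in every library (chromosome 2, 74534959 to 74538277, plus strand, GRCm39, whole gene span). It had 27, 9 and 17 counts in BMP-2 replicate 1, replicate 2 and the unnumbered BMP-2 library, and 13, 13 and 20 counts in control replicates 1, 2 and 3. The mean was 0.644 ± 0.244 CPM in BMP-2 and 0.682 ± 0.0572 CPM in control libraries (SD, n = 3 each), and the groups overlapped. Its log2 change was -0.08 (SE 0.420, adjusted p = 0.990, edgeR), and the ratio of its summed counts was 0.962 with an exact 95% counting interval from 0.636 to 1.46. The change was positive without BMP-2 replicate 2 (0.19) or control replicate 3 (0.01). Its neighbour Hoxd9 had 5, 4 and 5 counts in the BMP-2 libraries and 5, 0 and 5 in the controls. Both lie in the middle of the Hoxd cluster. Hoxd1, Hoxd4, Hoxd11 and Hoxd12 were at 0, and Hoxd3, Hoxd10 and Hoxd13 had counts in 1 library each.

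Per kilobase of gene model, Hoxc13 had 0.101, 1.54 and 0.810 CPM in BMP-2 replicate 1, replicate 2 and the unnumbered library, against 0.0202, 0 and 0.0152 CPM in control replicates 1, 2 and 3. Hoxd8 had 0.306, 0.135 and 0.263 CPM per kilobase in the same BMP-2 libraries, against 0.236, 0.237 and 0.273 in the controls. Thus Hoxc13 stood above Hoxd8 in BMP-2 replicate 2 and the unnumbered library and below it in the other 4. Over all 6 libraries the next in order were Hoxd9 (0.0755 CPM per kilobase), Hoxb2 (0.0580), Hoxa11 (0.0462), Hoxc10 (0.0398) and Hoxb4 (0.0338), whose ranges over libraries overlapped.

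Of the anterior Hoxb genes, Hoxb2 had counts in 6 libraries, Hoxb4 in 5 and Hoxb3 in 3, and Hoxb1 was at 0. Hoxb2, a hindbrain segment gene, had 6, 12 and 2 counts in BMP-2 replicate 1, replicate 2 and the unnumbered library, and 4, 2 and 4 in the controls. Hoxb3 had 4, 3 and 2 counts with BMP-2 and 0 in every control. It was not called (unadjusted p = 0.0254 and adjusted p = 0.481, edgeR without the filter). The antisense Hoxb3os had 4, 6 and 1 counts with BMP-2 and 2, 0 and 1 without. Hoxb4 had 5, 3 and 1 counts with BMP-2 and 1, 0 and 4 without. Hoxa2, the gene that sets the identity of the hyoid arch and is not active in the mandibular arch, had 2 counts, both in control replicate 3. Paralog groups 1 to 3 together held 14, 17 and 4 counts with BMP-2 and 4, 2 and 10 without.

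Control replicate 3 stood apart at the posterior genes. Hoxa11, a gene of the limb and the hind trunk, had 1, 0 and 1 counts in the BMP-2 libraries, and 3, 0 and 11 in control replicates 1, 2 and 3. Hoxc10 and Hoxc11, known for their place in the hind limb and the lower trunk, had 7 and 6 counts in control replicate 3. In the other libraries Hoxc10 had 2 counts or fewer and Hoxc11 had 1 or 0. Hoxa10 had 0 counts in every BMP-2 library and 1, 0 and 4 in control replicates 1, 2 and 3. Hoxa9 had 1, 0 and 2 counts with BMP-2 and 2, 0 and 4 without, and Hoxa7 had 0, 1 and 0 with BMP-2 and 1, 0 and 5 without.

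Paralog groups 10 and 11 together held 3, 2 and 1 counts in BMP-2 replicate 1, replicate 2 and the unnumbered library and 5, 1 and 30 in control replicates 1, 2 and 3. Control replicate 3 thus held 71.4% of these 42 counts, while it held 17.9% of all counts of the series. Groups 10 and 11 were singled out with these values in view, so the share is a description. For groups 9 to 13 without Hoxc13 it was 47.6% (exact 95% interval 36.6 to 58.8%, counting error only), and for group 9 alone it was 10 of 40 counts, as many as in the unnumbered BMP-2 library. For paralog groups 1 to 3 the share was 19.6% (9.82 to 33.1%) and for groups 4 to 8 it was 26.1% (18.9 to 34.4%). Of the 26 Hox genes with a count, 12 were highest in control replicate 3, and 4 had counts in that library alone. This library had higher muscle, leukocyte, endothelial, neuronal, glial and erythroid marker sums than the other controls. The glial and erythroid sums were close to those of control replicate 1 (20.8 against 20.1 CPM and 1.83 against 1.79 CPM). The part of these cell types in its posterior Hox counts was not tested. Hoxa11 and Hoxc11 were the members lower with BMP-2 among the 4 named above from the fit without the filter, and neither was called. Control replicate 3 held 11 of 14 and 6 of 7 of their control counts.

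**Figure D4:**
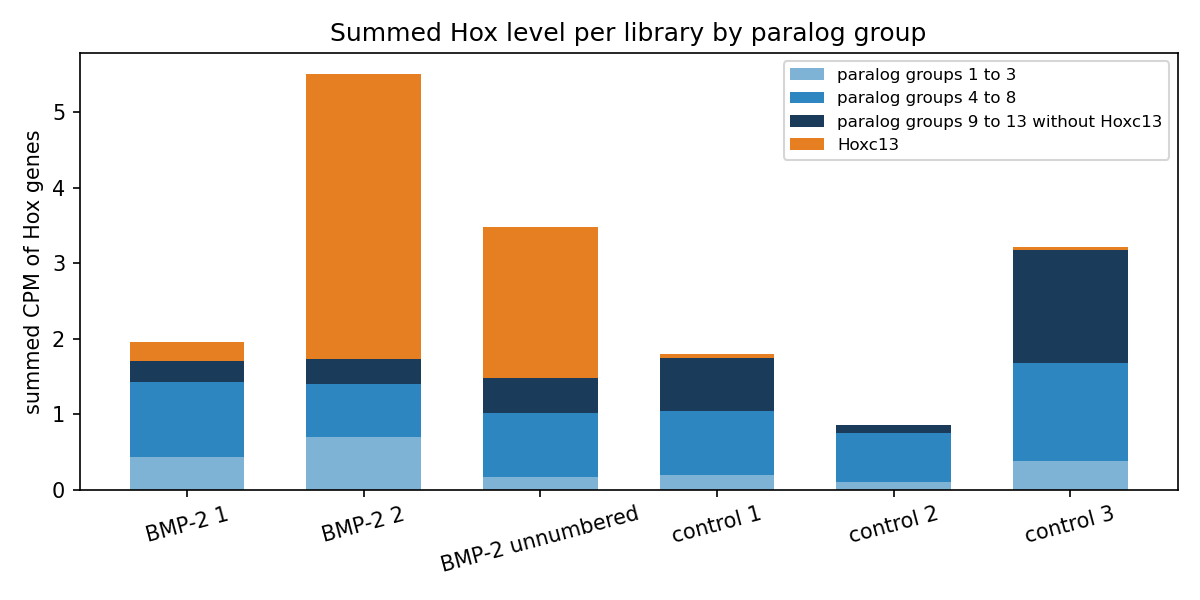
Summed CPM of all Hox genes in each library, stacked by paralog groups, with Hoxc13 apart. Hoxc13 makes up most of the bar in BMP-2 replicate 2 and the unnumbered BMP-2 library, and paralog groups 9 to 13 without Hoxc13 reach 1.496 CPM in control replicate 3, against 0.467 CPM or less with BMP-2.

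Summed over all 39 genes, the Hox level was 3.65 ± 1.78 CPM in BMP-2 and 1.95 ± 1.19 CPM in control libraries (SD, n = 3 each). Without Hoxc13 it was 1.64 ± 0.135 CPM in BMP-2 and 1.92 ± 1.17 CPM in control libraries, from 132 and 137 counts. The ratio of these means was 0.853, and 1.28 without control replicate 3, so its direction rests on that library. For all 39 genes the ratio was 1.87, and 2.79 without control replicate 3. Without Hoxc13 the 3 BMP-2 libraries lay close together, at 1.71, 1.73 and 1.48 CPM, within the control range of 0.851 to 3.18 CPM. With Hoxc13 included, BMP-2 replicate 1, replicate 2 and the unnumbered library were at 1.96, 5.51 and 3.48 CPM. By cluster, Hoxa held 12 counts with BMP-2 and 34 without, of which 26 were in control replicate 3, Hoxb 44 and 18, Hoxc without Hoxc13 9 and 22, and Hoxd 67 and 63.

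Hox proteins bind DNA together with homeodomain cofactors of the Pbx, Meis and Pknox families, and some of these were abundant. Meis2 was at 193 ± 17.6 CPM in BMP-2 and 208 ± 18.5 CPM in control libraries (SD, n = 3 each). Of 9 cofactor genes 8 were tested, 0 were called by edgeR and 1, Pknox2, had an unadjusted p below 0.05, which 10.1% of all genes tested had. The log2 change of Pknox2 was 0.62 (adjusted p = 0.340, edgeR). The median of the 8 was 0.01, beside -0.01 for all genes tested. Chromatin regulators that keep Hox clusters shut or open, the Polycomb and Trithorax genes and their erasers, had log2 changes from -0.13 for Kmt2a to 0.17 for Ezh1, with a median of -0.03. Of these 19 genes 18 were tested, and 0 were called by edgeR or had an unadjusted p below 0.05. Among the most abundant, Suz12, a Polycomb subunit gene, was at 128 ± 7.88 CPM with BMP-2 and 137 ± 11.2 CPM without, and Phc2 at 114 ± 1.99 and 112 ± 4.06 CPM (SD, n = 3 each). DESeq2 and limma-voom also called 0 genes of both lists.

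Among 13 genes known to set Hox expression upstream, 8 were tested, 1 rose and 0 fell, while 0.911% of all genes tested were called. The median log2 change of the 8 was 0.26, beside -0.01 for all genes tested, and 7 were positive. Of the 8, 3 had an unadjusted p below 0.05 in edgeR, which 10.1% of all genes tested had. Cyp26b1, which encodes an enzyme that breaks down retinoic acid, an inducer of anterior Hox genes, reached 18.5 and 42.0 CPM in BMP-2 replicates 1 and 2 and 33.3 CPM in the unnumbered library. Its control level was 1.59, 0.951 and 2.21 CPM in control replicates 1, 2 and 3. It rose by 4.28 on the log2 scale (SE 0.399, adjusted p = 0.00966, edgeR), and by 4.23 without the unnumbered library (adjusted p = 0.0419, edgeR). The call was lost without control replicate 1 (log2 change 4.27) and with the muscle marker score as a covariate (4.07). Its paralog Cyp26a1 had 21, 84 and 22 counts with BMP-2 and 1, 0 and 0 without, a ratio of 106 with an exact 95% counting interval from 18.7 to 4219 (log2 change 6.37, adjusted p = 0.0540, edgeR). Cyp26a1 was called without the filter (adjusted p = 0.000542, edgeR) and in DESeq2 (adjusted p = 0.000247). With the filter but without the unnumbered BMP-2 library, its log2 change was 6.66 (adjusted p = 0.106, edgeR). It passed the filter only through its BMP-2 counts, so its tests are a description. The retinoic acid synthesis gene Aldh1a2 had a log2 change of 0.14. The retinoic acid receptor genes Rara, Rarg and Rarb had log2 changes of 0.28, 0.24 and -0.47, and these 4 genes were not called (adjusted p from 0.404 to 0.928, edgeR). The caudal genes Cdx1, Cdx2 and Cdx4, activators of trunk Hox genes, and the hindbrain boundary gene Gbx2 were at 0 in every library.

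**Figure D5:**
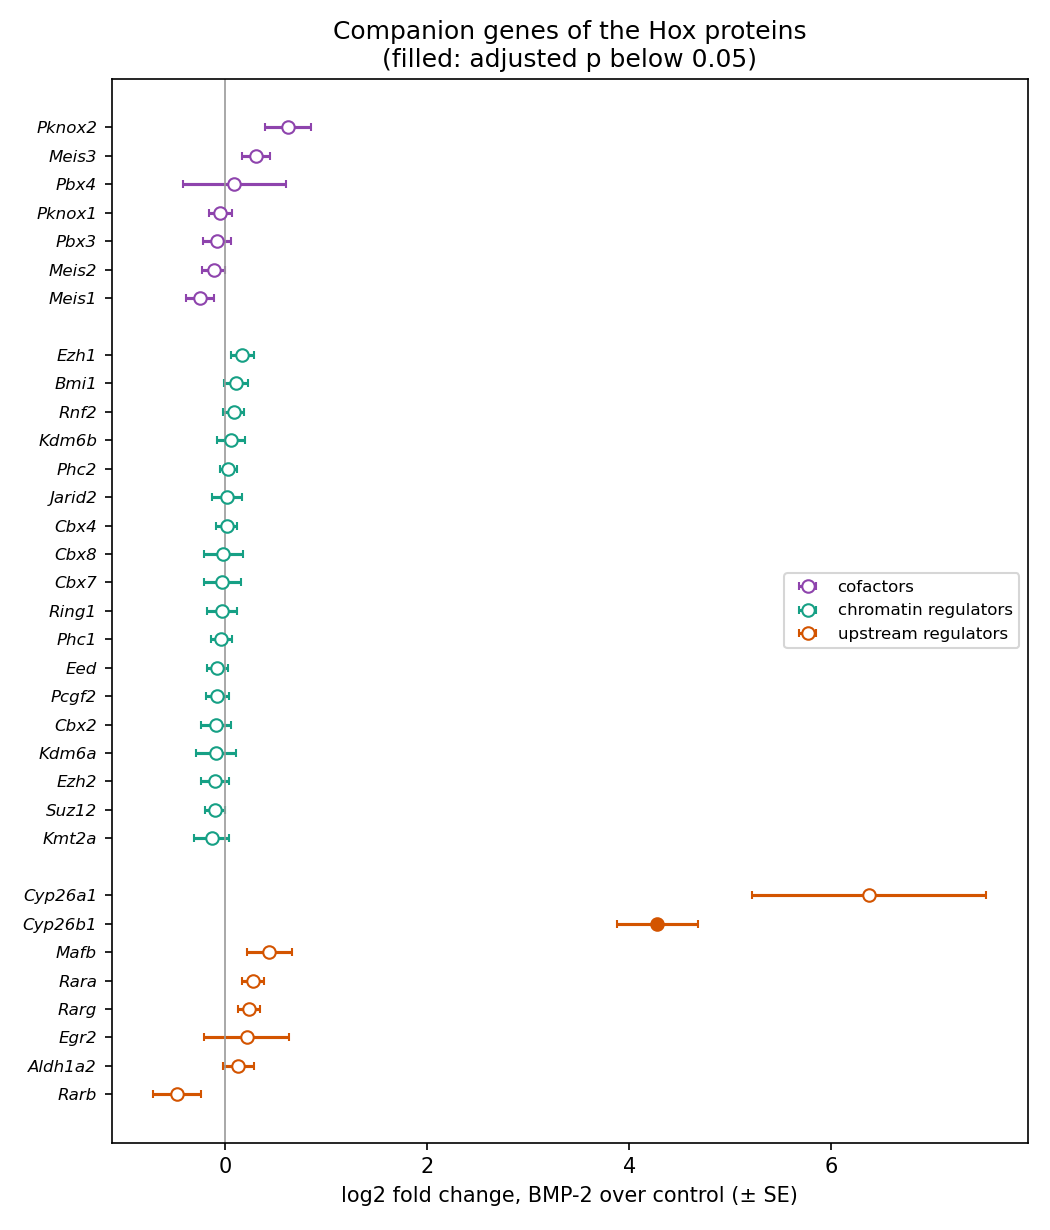
Log2 fold changes, BMP-2 over control, with their SE, of tested cofactor (7 of 8), chromatin and upstream regulator genes; filled points have an adjusted p below 0.05. Only Cyp26b1 is filled, at 4.28, and all chromatin regulators lie between -0.13 and 0.17.

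No gene beside the clusters was called. The 24 nearest tested genes, 3 on each side of each cluster at 60.7 to 757 kb, had log2 changes from -0.55 to 0.23. Of these, 0 were called by edgeR or had an unadjusted p below 0.05, which 10.1% of all genes tested had. Hnrnpa1, on the far side of Hoxc4, was at 847 ± 92.6 CPM in BMP-2 and 885 ± 25.5 CPM in control libraries, and Cbx3, a heterochromatin protein gene beside Hoxa, at 282 ± 41.9 and 295 ± 22.4 CPM (SD, n = 3 each). Of 14 noncoding RNAs of the clusters with a row, 8 were at 0 in every library, and none passed the filter. Among the 8 were Hotair, Hottip and the microRNA genes Mir10a, Mir10b, Mir196a-1 and Mir196a-2. Libraries of polyadenylated messages may miss microRNAs, so nothing is read from those zeros. Halr1, a noncoding RNA of the Hoxa end, had 18, 2 and 0 counts with BMP-2 and 6, 6 and 10 without. The homeobox gene Evx1 beside Hoxa13 had 3, 1 and 0 counts with BMP-2 and 0 in every control, and Evx2 beside Hoxd13 was at 0.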

How the data were processed

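The authors deposited raw read counts per gene, with no normalization, and a gene model length in bases (another quantity, not a measurement) for each row. Cutadapt 2.9, HISAT2 2.2.0, featureCounts and the build GRCm39 are named, without their settings, per the submitters' processing notes; the strand setting and the handling of reads with several matches are not given in the sources used here. From the counts, edgeR 4.0.16 (R 4.3.3; TMM factors, default expression filter by group, robust quasi-likelihood fit) tested BMP-2 against control over 17006 genes with Benjamini-Hochberg adjustment at 0.05. The fit had 4 residual degrees of freedom and was checked on simulated data. The SE is the absolute log2 change over the square root of F. Replicate pairs differed by 12.7 to 38.2 chi-square units per degree of freedom, more than counting error alone gives. Each library was counted separately, but these values do not show that libraries stem from different litters or cultures. One column, whose name fits the BMP-2 group but no sample description, entered as a BMP-2 library without a number.

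The Hox genes, companion lists (cofactors, chromatin regulators, upstream regulators, cluster noncoding RNAs, flanking homeobox genes), marker lists and alternatives were chosen with earlier results of these data known, and the fits for Hoxc13 without the filter and the hard keratin list with the alternatives for Krt84 and Pax7 after their values were seen. Values by library are given for the 12 most abundant Hox genes, those called in any fit and the tested ones. Of the companion lists the called genes, or the 2 most abundant, are named. For Acta1, Cdh15, Tubb3, Krt85, Hotairm2 and Mir196b no row was found, and they were not analysed here. The values of 1 Hox gene and 1 cofactor gene are not reported here. Alternatives covered scaling, filter, test (DESeq2 1.42.0, limma-voom 3.58.1), a muscle covariate, leaving out each library, and a replicate block.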

Additional observations from a re-analysis of the deposited data

How the results depend on the processing

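The count of changed genes, 155, was 552 without the filter, 670 in DESeq2 and 78 in limma-voom. It was 20 to 151 when a single library was left out. It was 94, 29, 20 and 21 without BMP-2 replicate 1, the unnumbered BMP-2 library, control replicate 1 and control replicate 2, and 128 to 153 under other scalings. With the muscle score as a covariate it was 0 (324 at an unadjusted p below 0.05 in edgeR). That score was higher in every BMP-2 library than in every control, so this fit cannot separate it from the treatment. Called Hox genes numbered 0 to 1 when a library was left out (Hoxc13 without BMP-2 replicate 1, where it passed the filter only through its BMP-2 counts) and 0 under the other alternatives. In fits without the filter, Hoxc13, uncalled at a log2 change of 5.86, was called at 6.08 in DESeq2, 5.86 in edgeR without the robust option and 5.0 to 6.38 without any single library, and the cause was not tested. Hoxd8 ranged from -0.33 to 0.19 without single libraries. Among upstream regulators, 1 called gene became 2 without the filter and 2 in DESeq2, with Cyp26a1 added in both, and 0 with the muscle covariate and 0 to 1 without single libraries. The ratio of summed Hox levels was 1.39 to 2.79 without single libraries, and without Hoxc13 0.667 to 1.28, above 1 only without control replicate 3. Libraries with the same replicate number in both groups (2 pairs) share only a number, and their deviations correlated at 0.423. With a replicate block on these 4 libraries, which leaves 1 residual degree of freedom, 540 genes, 0 Hox genes and 3 upstream regulators were called, Cyp26a1 among them (adjusted p = 0.0228, edgeR), and Hoxc13 without the filter was called at a log2 change of 5.88. Most members had few counts, and a count of 0 allows up to 3.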
